A study of Homo sapiens with 12 samples.

Results

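The 10 genes described here make up the core of the G1 phase machinery: the D-type cyclins CCND1, CCND2 and CCND3, the E-type cyclins CCNE1 and CCNE2, the kinases CDK2, CDK4 and CDK6, and the inhibitors CDKN1A (p21) and CDKN1B (p27). They were taken by gene symbol from the 24559 symbols of a polysome RNA-sequencing table. All 10 were among the 16538 genes with enough counts to be tested.

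In G1, D-type cyclins pair with CDK4 or CDK6 and phosphorylate the retinoblastoma protein RB1. E-type cyclins then pair with CDK2, which completes the phosphorylation, releases E2F transcription factors and opens the way into S phase. p21 and p27 bind these complexes and inhibit CDK2, while INK4 inhibitors such as CDKN2A bind CDK4 and CDK6 alone. Cyclin D1 and CDK4 or CDK6 are frequent points of deregulation in breast cancer, and RB1 is lost in a share of triple-negative tumors.

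RNA from polysomes, that is mRNA carrying several ribosomes, was sequenced in 3 established triple-negative breast cancer (TNBC) cell lines, with 12 libraries in 6 groups of 2. MDA-MB-231 and SUM159 cells carried either a control vector (EV) or an shRNA against TRMT112 (KD). BT549 cells carried either a control vector (EV) or a TRMT112 expression construct (OE). TRMT112 is the cofactor of a set of methyltransferases that act on rRNA, tRNA and proteins. According to the methods, the shRNA was a GIPZ lentiviral clone set against a GIPZ non-silencing shRNA, both brought in by lipofection, and the OE group received an ORF clone set against its empty vector. MDA-MB-231 cells were grown in DMEM/F-12 with serum, SUM159 cells in the same medium with insulin and hydrocortisone added, and BT549 cells in RPMI medium with serum. So medium cannot be told apart from the line in any comparison between lines, nor control vector in those with BT549. The labels do not say that libraries came from separate cultures, and p-values then measure the spread between these libraries, which may be technical. No library of total RNA was analysed, so the amount of an mRNA and its loading with ribosomes cannot be told apart. Neither can fewer cells with an mRNA and less of it per cell. All levels below are relative to the other mRNAs of a library. The paper reports fewer polysomes with KD in both lines and more with OE in BT549. A rise or fall given here need not hold for the absolute amount of an mRNA in polysomes, which was not tested. Totals lay between 22954226 and 27434677 expected counts per library.

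TRMT112 itself followed the labels. Its level fell from 169 to 72.1 CPM (counts scaled by TMM to a common library size) in MDA-MB-231 KD, a log2 fold change of -1.23 (SE 0.04, adjusted p = 5.1e-16, edgeR). In SUM159 KD it fell from 270 to 159 CPM (-0.76, SE 0.04, adjusted p = 1.76e-14), and in BT549 OE it rose from 129 to 180 CPM (0.48, SE 0.04, adjusted p = 1.48e-10). The markers were those of mesenchymal cells, and PGR was the only hormone receptor gene with values here. VIM stood at 704 to 1986 CPM, PGR at no more than 9 counts, EPCAM at no more than 79 counts and the leukocyte gene PTPRC at no more than 16 counts in any library. The BT549 EV and OE libraries shared high CDKN2A, CDKN2B and MTAP levels that the other lines lacked. They differed from each other by a median absolute log2 difference per gene of 0.636, against 0.223 between EV and KD in MDA-MB-231, 0.433 in SUM159, 0.081 to 0.099 between replicates and 0.731 to 0.987 between lines.

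TRMT112 was lowered in MDA-MB-231 and SUM159 only and raised in BT549 only, so its direction and the line cannot be told apart. In MDA-MB-231, 4 of the 10 members passed the test between KD and EV, 3 higher and 1 lower, where 37.7% of all genes tested passed, 21.2% higher and 16.5% lower. In SUM159, 9 members passed, 6 higher and 3 lower, where 60.1% of all genes passed, 28.6% higher and 31.4% lower. In BT549, 8 members passed between OE and EV, 2 higher and 6 lower, where 70.6% of all genes passed, 35.6% higher and 35.0% lower. The median log2 fold change was 0.08 and 0.22 over the 10 members in MDA-MB-231 and SUM159 and -0.27 over the 9 members above 3 counts in BT549, beside a median over all genes of 0, 0 and 0.02. A gene passed at a Benjamini-Hochberg adjusted p under 0.05 in edgeR's quasi-likelihood test over all 16538 genes. With scaling by library size alone, which moved the median of all genes in MDA-MB-231 by -0.078, CDK4 also passed there (-0.16, adjusted p = 0.000103), which made 3 members higher and 2 lower. With RLE size factors CDK2 (0.09, adjusted p = 0.0476) and CDK6 (0.10, adjusted p = 0.0457) passed there instead, which made 5 higher and 1 lower. Of all genes that passed in MDA-MB-231, 56.2% were higher with TMM and 36.7% with library size alone.

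**Figure D1:**
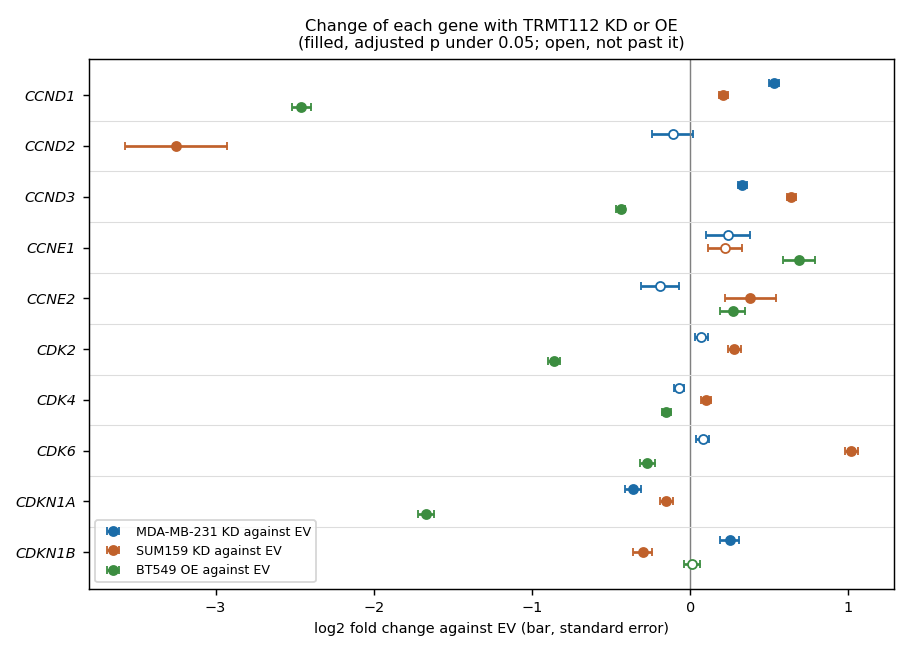
Log2 fold change (x axis) of each member (y axis) for KD against EV in MDA-MB-231 and SUM159 and for OE against EV in BT549, with bars of 1 standard error from edgeR and filled points where the adjusted p was under 0.05. CCND2 is not drawn for BT549, where both groups held 0 or 1 count; CCND1 and CDKN1A lie far to the left in BT549, at -2.46 and -1.67, and CCND2 at -3.25 in SUM159.

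Levels between genes were compared per transcript length, in TPM (transcript abundance scaled to the same total in each library). CDK4 had the highest TPM of the members in every group except MDA-MB-231 KD, where CCND1 stood at 280 ± 11.1 TPM and CDK4 at 270 ± 1.08 TPM (SD, n = 2). CDK4 reached 535 ± 9.38 TPM in SUM159 EV and 538 ± 0.739 TPM in BT549 EV, above 98.4% and 98.6% of the detected genes of those groups. With the length of the leading transcript these values were 436 and 442 TPM. The SD covers the spread between libraries and not the choice of length, which moved TPM of other members too. At the other end, CCNE1 and CCND2 lay near the middle of all detected genes in MDA-MB-231 EV, at 4.89 ± 0.204 and 5.24 ± 0.181 TPM. Across the 12 libraries CCND1 varied most in CPM among the members detected in all of them, with the highest library at 32.6 times the lowest, followed by CCNE2 (15.8) and CCNE1 (6.74). CDK2 varied least, with a ratio of 1.89.

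**Figure D2:**
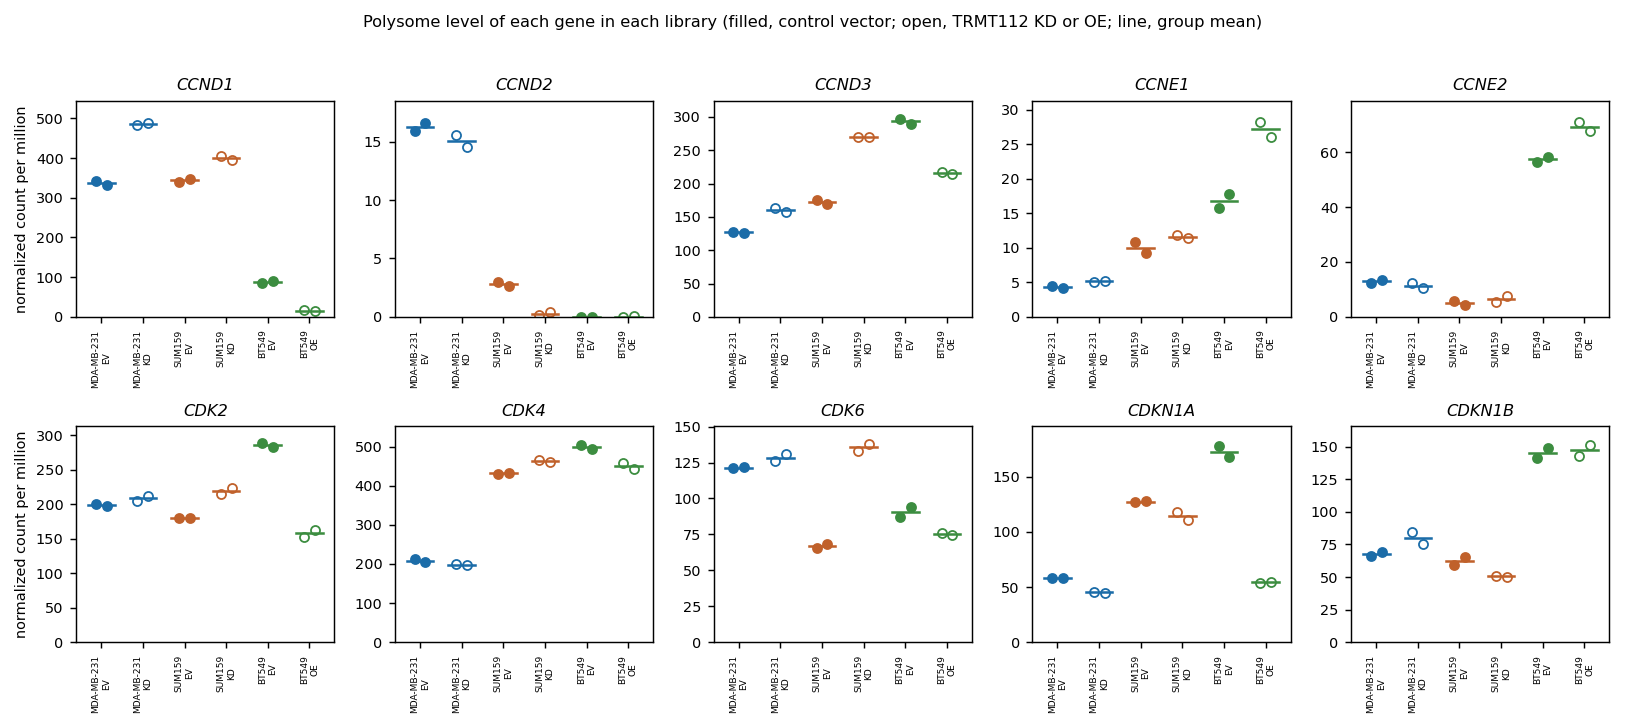
Normalized CPM (y axis, starting at 0) of each member in the 12 libraries, by group on the x axis, with points for libraries and lines for the mean of 2. CCND1 is lowest in BT549 OE at 15.0 and 16.7 CPM, CDK6 is lower in SUM159 EV than in SUM159 KD, and CDKN1A in BT549 OE lies near the MDA-MB-231 libraries.

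CCND1 encodes cyclin D1, the D-type cyclin most often amplified in breast cancer, and lies at chr11:69641156-69654474 on the plus strand (GRCh38, GENCODE 44). In MDA-MB-231 its level was 342 and 333 CPM in EV and 484 and 489 CPM in KD. In SUM159 it was 340 and 348 CPM in EV and 404 and 394 CPM in KD. In BT549 it was 85.0 and 89.5 CPM in EV and 16.7 and 15.0 CPM in OE. Both KD groups thus lay above their EV groups, and both OE libraries lay below every other library. The log2 fold changes were 0.53 (SE 0.03, adjusted p = 7.35e-12, edgeR), 0.21 (SE 0.03, adjusted p = 3.13e-06) and -2.46 (SE 0.06, adjusted p = 2.93e-21). The BT549 change was a 5.50-fold fall, larger in size than that of 86.1% of all genes in that comparison, while the SUM159 rise was larger than that of only 26.2%. On the TPM scale CCND1 in SUM159 stood at 169 ± 6.39 in EV and 176 ± 8.07 in KD, within the spread. In the order of the group means, SUM159 EV (344 CPM) and MDA-MB-231 EV (338 CPM) did not differ past the threshold, and the other 4 neighbouring pairs did. Most CCND1 counts, 94.7%, belonged to the transcript CCND1-201.

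CCND2, the gene of cyclin D2 at chr12:4269771-4305353 on the plus strand, was a minor D-type cyclin in all 3 lines. It was counted at 405 and 434 in MDA-MB-231 EV and at 399 and 359 in KD, a log2 fold change of -0.11 (SE 0.13) that did not pass the test (adjusted p = 0.558, edgeR). SUM159 EV held 71 and 63 counts, and SUM159 KD 4 and 11 counts. This fall from 2.82 ± 0.246 to 0.283 ± 0.162 CPM (SD, n = 2) was 9.53-fold, with a log2 fold change of -3.25 (SE 0.32, adjusted p = 7.75e-09), greater in size than that of 96.4% of all genes in SUM159. The BT549 libraries held 0, 0, 0 and 1 count, which is under the 3 counts that a count of 0 allows, so no fold is given there. CCND2 overlaps an unnamed protein-coding gene model on the same strand, ENSG00000285901, over 31592 bases, so that reads may be split between them. When their counts were joined, an alternative chosen after the data were seen, the SUM159 fall was -1.93 (adjusted p = 5.76e-07) and the MDA-MB-231 value became 0.11 (adjusted p = 0.576). Every transcript in the table had a count in at least 1 BT549 library, and 5 of the 8 CCND2 transcripts annotated in GENCODE 44 were in it, so CCND2 counts in MDA-MB-231 and SUM159 cover those 5.

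CCND3, which encodes cyclin D3, was the D-type cyclin that rose most in SUM159. Its level was 175 and 170 CPM in SUM159 EV and 270 and 270 CPM in KD. It was 128 and 126 CPM in MDA-MB-231 EV and 163 and 157 CPM in KD. In BT549 it was 297 and 290 CPM in EV and 218 and 215 CPM in OE. The KD libraries lay above and the OE libraries below their controls, without overlap. The log2 fold changes were 0.64 (SE 0.03, adjusted p = 3.67e-14, edgeR) in SUM159, 0.33 (SE 0.03, adjusted p = 4.99e-08) in MDA-MB-231 and -0.44 (SE 0.03, adjusted p = 2.1e-11) in BT549. All 5 neighbouring pairs in the order of its group means differed past the threshold, from BT549 EV (293 CPM) down to MDA-MB-231 EV (127 CPM).

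The D-type cyclins together, summed as TPM, stood at 341 ± 6.17 in MDA-MB-231 EV and 443 ± 6.91 in KD, at 350 ± 6.98 in SUM159 EV and 424 ± 11.7 in KD, and at 269 ± 2.76 in BT549 EV and 175 ± 0.238 in OE (SD, n = 2). Their makeup differed by line. CCND1 made up 58.7% ± 0.438 of the sum in MDA-MB-231 EV and 63.3% ± 1.52 in KD, but 48.4% ± 0.862 in SUM159 EV and 41.5% ± 0.758 in KD. In BT549 it made up 14.4% ± 0.293 in EV and 3.83% ± 0.520 in OE, where CCND3 held 96.2% ± 0.515. The cyclin D1 share was thus higher in KD than in EV in MDA-MB-231 and lower in KD than in EV in SUM159, while CCND1 and CCND3 themselves rose in CPM in both lines. The difference between the KD effects of the lines was 0.31 for CCND1 (SE 0.04, adjusted p = 2.53e-06, MDA-MB-231 minus SUM159 on the log2 scale) and -0.31 for CCND3 (SE 0.05, adjusted p = 7.16e-06), both from edgeR.

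**Figure D3:**
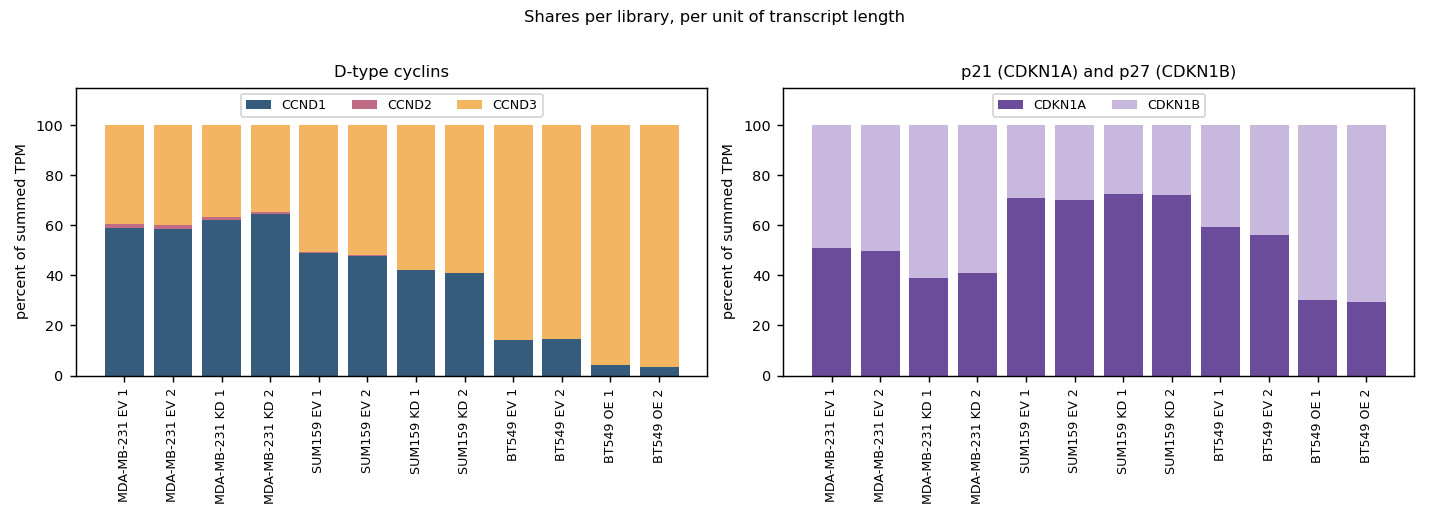
Percent of the summed TPM (y axis) held by each D-type cyclin (left panel) and by CDKN1A and CDKN1B (right panel) in each of the 12 libraries (x axis). CCND3 fills 85.6% of the D-type bar on average in BT549 EV and 96.2% in OE, and the CDKN1A share in BT549 falls from a mean of 57.7% in EV to 29.8% in OE.

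CCND3 transcripts start at separate places at chr6:41934934-42050357, on the minus strand. The main transcript, CCND3-203, starts at 41941808. Of the 19 transcripts in the table, 12 start far upstream of it, at 42048676 to 42050357, by up to 109 kb. These 12 are called upstream here, and all others were counted together, whatever their start. The table holds expected counts, which split reads among transcripts, so start use is an estimate. The upstream transcripts held 36.0% and 38.1% of CCND3 counts in SUM159 EV and 18.2% and 19.7% in SUM159 KD. In MDA-MB-231 they held 11.3% and 12.2% in EV and 5.62% and 7.12% in KD, and in BT549 between 1.19% and 3.21% in all 4 libraries. The shares were lower in KD than in EV in both lines without overlap. In SUM159 the transcripts from other starts stood at 109 ± 4.81 CPM in EV and 219 ± 2.57 CPM in KD, while the upstream ones stood at 64.0 ± 1.36 and 51.1 ± 2.86 CPM (SD, n = 2). These shares were described only and not tested. The leading transcript alone, fitted among all transcripts, stood 0.11 higher on the log2 scale in MDA-MB-231 EV than in SUM159 EV (adjusted p = 0.101), whereas all CCND3 transcripts together were lower there (-0.44, adjusted p = 4.22e-11, edgeR).

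**Figure D4:**
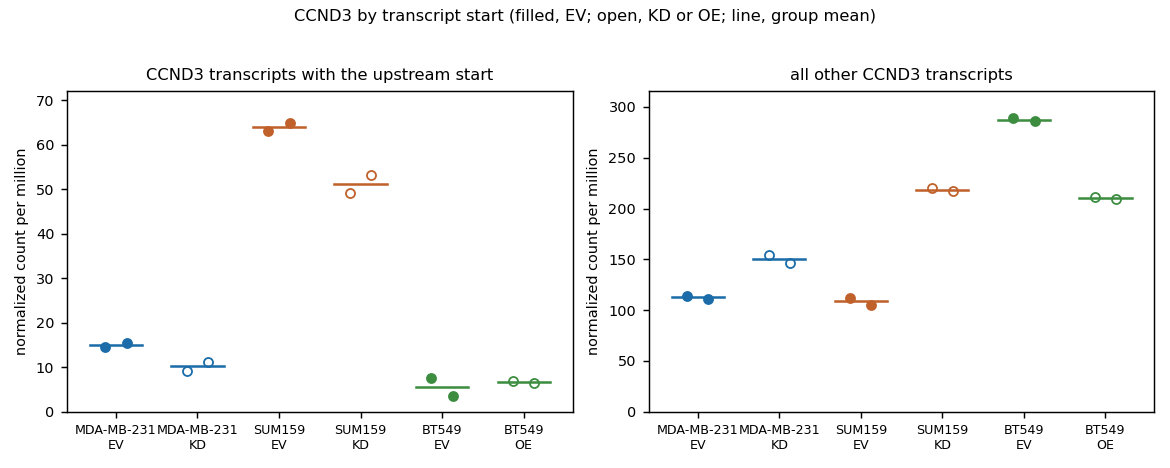
Normalized CPM (y axis) of CCND3 transcripts with the upstream start (left panel) and of all others (right panel), by group on the x axis, with points for libraries and lines for the mean of 2. In SUM159 the upstream transcripts lie lower in KD than in EV, and the others lie at 219 CPM in KD against 109 CPM in EV.

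The sequences around these starts are shown because the counts above bear on them. They are RefSeq windows on GRCh38.p14 from 250 bases before to 50 bases after a start, at chr6:42048639-42048938 and chr6:41941759-41942058 on the minus strand, with the letters GGGCGG of the GC box, read on either strand, in capitals.
CCND3 upstream start: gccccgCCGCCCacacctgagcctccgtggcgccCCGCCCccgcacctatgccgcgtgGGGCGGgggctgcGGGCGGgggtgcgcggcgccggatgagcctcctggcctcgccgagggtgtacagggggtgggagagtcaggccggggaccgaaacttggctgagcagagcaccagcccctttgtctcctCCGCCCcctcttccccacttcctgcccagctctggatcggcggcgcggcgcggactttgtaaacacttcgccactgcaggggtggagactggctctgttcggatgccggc
CCND3 main start: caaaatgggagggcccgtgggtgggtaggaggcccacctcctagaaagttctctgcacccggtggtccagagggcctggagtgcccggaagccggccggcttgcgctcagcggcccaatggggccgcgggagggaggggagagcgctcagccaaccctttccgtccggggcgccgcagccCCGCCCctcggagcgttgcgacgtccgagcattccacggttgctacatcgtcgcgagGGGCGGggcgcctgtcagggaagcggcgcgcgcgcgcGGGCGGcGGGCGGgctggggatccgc
The upstream window held 5 GC boxes and the main one 4. Of the 35116 promoter windows in the RefSeq table, 45.0% held at least 1. Neither window held the E2F letters TTTGGCGC, TTTCCCGC or TTTCGCGC, which 2.74% of all windows held, or the CRE letters TGACGTCA, which 1.85% held. Neither held the E-box CACGTG or the TATA box TATAAA, which 7.26% and 11.5% held, nor the AP-1 letters TGANTCA, which 7.71% held. The GAS letters TTCNNNGAA, which 7.66% held, were absent too. All were read on both strands. Of the 10 members, 6 had an entry in that table (CCND3, CCNE1, CDK4, CDK6, CDKN1A and CDKN1B). All 6 held a GC box in at least 1 window, and CDK4 and CDK6 an E-box.

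The E-type cyclins were the only members that rose in BT549 OE. CCNE1, the gene of cyclin E1 at chr19:29811991-29824312, was at 15.8 and 17.8 CPM in BT549 EV and at 28.3 and 26.1 CPM in OE. This rise of 0.69 on the log2 scale (SE 0.10, adjusted p = 1.08e-06, edgeR) was 1.62-fold, with no overlap between the groups. In MDA-MB-231 CCNE1 was at 4.49 and 4.20 CPM in EV and 5.09 and 5.16 CPM in KD (0.24, SE 0.14, adjusted p = 0.214). In SUM159 it was at 10.8 and 9.21 CPM in EV and 11.8 and 11.4 CPM in KD (0.22, SE 0.11, adjusted p = 0.10). KD lay above EV in both lines, but neither difference passed the test, and the latter passed with RLE size factors (0.27, adjusted p = 0.0392) and without SUM159 EV replicate 1 (0.33, adjusted p = 0.0437).

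CCNE2, the gene of cyclin E2 on chromosome 8, was a BT549 gene by level. It stood at 56.4 and 58.4 CPM in BT549 EV and at 70.9 and 67.6 CPM in OE, a log2 fold change of 0.27 (SE 0.08, adjusted p = 0.0046, edgeR) that did not pass without OE replicate 1 (0.23, adjusted p = 0.0563). In MDA-MB-231 it was at 12.3 and 13.5 CPM in EV and 12.2 and 10.4 CPM in KD (-0.19, SE 0.12, adjusted p = 0.231). SUM159 EV held 5.61 and 4.50 CPM and KD 5.31 and 7.71 CPM, so that the groups overlapped. The SUM159 difference passed narrowly (0.38, SE 0.16, adjusted p = 0.0428) and rested on KD replicate 2, without which it was 0.08 (adjusted p = 0.775). It did not pass without EV replicate 2 either (0.22, adjusted p = 0.347). On the opposite strand CCNE2 overlaps INTS8 and NDUFAF6, with mean counts of 665 and 342 against 606 for CCNE2, and since the strand setting of the counting is not named, reads of such pairs cannot be told apart. The E-type cyclins together stood at 14.7 ± 1.82 to 17.9 ± 1.15 TPM in the groups of MDA-MB-231 and SUM159, and at 55.2 ± 2.62 in BT549 EV and 69.8 ± 2.20 TPM in OE (SD, n = 2). CCNE1 was the larger part in SUM159, at 70.7% ± 1.66 in EV, and the smaller part in MDA-MB-231 EV (31.1% ± 4.65) and BT549 EV (29.0% ± 1.29).

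Of the kinases, CDK6 had the largest change. CDK6, at chr7:92604921-92836573 on the minus strand, stood at 65.7 and 68.2 CPM in SUM159 EV and at 133 and 138 CPM in KD. This was a 2.03-fold rise (log2 fold change 1.02, SE 0.04, adjusted p = 1.88e-15, edgeR), larger in size than the change of 78.5% of all genes in SUM159. MDA-MB-231 had a level near that of SUM159 KD already in EV, with 121 and 122 CPM, against 126 and 131 CPM in KD (0.08, SE 0.04, adjusted p = 0.123). In the order of group means, SUM159 KD (136 CPM) and MDA-MB-231 KD (129 CPM) did not differ past the threshold. Neither did MDA-MB-231 KD and MDA-MB-231 EV (122 CPM). The test between SUM159 KD and MDA-MB-231 EV is not given here. In BT549 CDK6 was at 86.8 and 93.9 CPM in EV and at 75.7 and 74.6 CPM in OE (-0.27, SE 0.05, adjusted p = 2.05e-05), a fall that the leading transcript CDK6-202, with 52.4% of the counts, did not pass alone (-0.18, adjusted p = 0.20).

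CDK4 at chr12:57747727-57756013, the partner kinase of D-type cyclins beside CDK6, moved little. It was at 212 and 205 CPM in MDA-MB-231 EV and at 199 and 198 CPM in KD (-0.07, SE 0.03, adjusted p = 0.0866, edgeR). This fall passed with a mean of at least 50 counts (-0.08, adjusted p = 0.0263) and with the line fitted alone (-0.08, adjusted p = 0.0408). SUM159 held 431 and 432 CPM in EV and 465 and 460 CPM in KD (0.10, SE 0.03, adjusted p = 0.00397), and BT549 505 and 495 CPM in EV and 459 and 443 CPM in OE (-0.15, SE 0.03, adjusted p = 7.22e-05). On the TPM scale CDK4 did not differ beyond the spread in SUM159, at 535 ± 9.38 in EV and 532 ± 5.62 in KD. Per transcript length, CDK6 was a small part of the CDK4 and CDK6 sum, at 6.83% ± 0.0863 in MDA-MB-231 EV, 1.89% ± 0.0657 in SUM159 EV and 3.56% ± 0.111 in SUM159 KD (SD, n = 2). The sum itself was 545 ± 9.19 TPM in SUM159 EV and 552 ± 5.19 TPM in KD. The leading transcript CDK4-201 did not pass alone in SUM159 (0.10, adjusted p = 0.0961) or BT549 (-0.06, adjusted p = 0.258). CDK4 overlaps TSPAN31 and MARCHF9 on the opposite strand, with mean counts of 639 and 451 against 8831.

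CDK2, the kinase of cyclin E and cyclin A complexes, lies at chr12:55966781-55972789 on the plus strand. Its level in BT549 was 288 and 282 CPM in EV and 152 and 163 CPM in OE, a fall of 1.81-fold (log2 fold change -0.86, SE 0.04, adjusted p = 7.85e-16, edgeR). In SUM159 it was 180 and 180 CPM in EV and 214 and 224 CPM in KD (0.28, SE 0.04, adjusted p = 3.51e-07). In MDA-MB-231 it was 200 and 197 CPM in EV and 205 and 212 CPM in KD (0.07, SE 0.04, adjusted p = 0.127). BT549 thus held the highest CDK2 group under the control vector and the lowest under OE. The MDA-MB-231 value passed with RLE size factors in edgeR (0.09, adjusted p = 0.0476) and in DESeq2 (0.09, adjusted p = 0.0431). With library size alone it changed sign (-0.02, adjusted p = 0.763, edgeR).

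CDKN1A, the gene of p21, fell in all 3 comparisons. Its level was 58.0 and 58.7 CPM in MDA-MB-231 EV and 45.6 and 45.0 CPM in KD. In SUM159 it was 127 and 128 CPM in EV and 118 and 111 CPM in KD, and in BT549 178 and 168 CPM in EV and 53.8 and 54.8 CPM in OE. No KD or OE library reached its control libraries. The log2 fold changes were -0.36 (SE 0.05, adjusted p = 3.19e-06, edgeR), -0.15 (SE 0.04, adjusted p = 0.00276) and -1.67 (SE 0.05, adjusted p = 1.15e-19). In BT549 this was a 3.19-fold fall, larger in size than the change of 77.5% of all genes there. The BT549 OE mean of 54.3 CPM did not differ past the threshold from the MDA-MB-231 EV mean of 58.4 CPM (adjusted p = 0.06). The SUM159 fall did not pass in DESeq2 (-0.10, adjusted p = 0.0787) or without SUM159 KD replicate 2 (-0.11, adjusted p = 0.0672).

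The CDKN1A promoter window is shown because CDKN1A had the largest change among the members with a RefSeq promoter entry. It lies at chr6:36678464-36678763 on the plus strand (GRCh38.p14) and held 4 GC boxes, in capitals, of which neighbouring ones join, and none of the other letters searched.
CDKN1A: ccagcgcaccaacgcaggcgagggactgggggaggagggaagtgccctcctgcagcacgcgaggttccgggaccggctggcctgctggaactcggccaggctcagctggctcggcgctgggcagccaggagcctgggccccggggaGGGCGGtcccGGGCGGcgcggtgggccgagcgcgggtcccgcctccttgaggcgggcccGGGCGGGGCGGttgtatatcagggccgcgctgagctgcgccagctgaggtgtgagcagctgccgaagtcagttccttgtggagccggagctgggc

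CDKN1B, the gene of p27 at chr12:12685498-12722369, moved in opposite directions in the KD lines. In MDA-MB-231 it rose from 66.0 and 68.8 CPM in EV to 84.5 and 75.3 CPM in KD (0.25, SE 0.06, adjusted p = 0.00113, edgeR). In SUM159 it fell from 59.3 and 65.1 CPM in EV to 51.1 and 50.0 CPM in KD (-0.30, SE 0.06, adjusted p = 0.000145). The difference of the KD effects was 0.54 (SE 0.08, adjusted p = 5.42e-06, MDA-MB-231 minus SUM159). In BT549 the EV libraries at 141 and 149 CPM overlapped the OE libraries at 143 and 151 CPM (0.01, SE 0.05, adjusted p = 0.812). The MDA-MB-231 rise did not pass without KD replicate 1 (0.16, adjusted p = 0.0634). Per transcript length, CDKN1A held 50.3% ± 0.727 of the CDKN1A and CDKN1B sum in MDA-MB-231 EV and 39.8% ± 1.46 in KD, and 57.7% ± 2.14 in BT549 EV and 29.8% ± 0.540 in OE (SD, n = 2). In SUM159 the shares were 70.5% ± 0.727 and 72.3% ± 0.389.

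Between the KD lines, 9 of the 10 members differed in their response, 3 above and 6 below 0, where 50.9% of all genes did, 27.7% above and 23.2% below. CDK6 and CCND3 responded with larger rises in SUM159, with differences of -0.93 (SE 0.06, adjusted p = 6.77e-12, edgeR, MDA-MB-231 minus SUM159) and -0.31. CDK2 and CDK4 differed by -0.21 (SE 0.05, adjusted p = 0.00125) and -0.17 (SE 0.04, adjusted p = 0.00164), and CDKN1A, which fell in both lines, by -0.21 (SE 0.07, adjusted p = 0.00889). CCND2 differed by 3.14 (SE 0.35, adjusted p = 1.06e-07). CCNE1 had a difference of 0.02 (SE 0.18, adjusted p = 0.976), and CCNE2 of -0.57 (SE 0.20, adjusted p = 0.0192). The CCNE2 difference was -0.26 without SUM159 KD replicate 2 and -0.41 without SUM159 EV replicate 2. It was -0.45 without MDA-MB-231 KD replicate 2 and -0.49 without MDA-MB-231 EV replicate 2. The call was not kept in any of these fits.

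Over all members, 35 of the 50 pairs of groups next to each other in level differed past the threshold. The pairs were set by ordering the same values, and the share over all genes was not taken for such pairs. In the single comparisons of groups, 37.7% to 79.5% of all genes passed. For CCNE1 the order ran from BT549 OE (27.2 CPM) and BT549 EV (16.8 CPM) over SUM159 to MDA-MB-231, with KD and EV of each of the last lines not told apart. For CCNE2 it ran from BT549 OE (69.2 CPM) over BT549 EV and MDA-MB-231 to SUM159 EV (5.06 CPM), with only the MDA-MB-231 pair not told apart. CDK2 was ordered from BT549 EV (285 CPM) down to BT549 OE (158 CPM). Between them, SUM159 KD and MDA-MB-231 KD did not differ past the threshold, nor did MDA-MB-231 KD and MDA-MB-231 EV. The test of CDK2 between SUM159 KD and MDA-MB-231 EV is not given here. For CDK4, SUM159 KD (463 CPM) and BT549 OE (451 CPM) did not differ past it (adjusted p = 0.242, edgeR), nor did the MDA-MB-231 groups, which were lowest. For CDKN1B the BT549 groups were highest, at 147 and 145 CPM, and MDA-MB-231 EV (67.4 CPM) and SUM159 EV (62.2 CPM) did not differ past it (adjusted p = 0.0752). CCND2 fell in order from MDA-MB-231 EV and KD, which were not told apart, over SUM159 EV and KD to BT549.

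Under the control vectors the lines differed in most members. Between MDA-MB-231 EV and SUM159 EV 8 of 10 members passed, 4 higher and 4 lower in MDA-MB-231, where 75.7% of all genes passed, 36.4% higher and 39.2% lower. BT549 EV differed from MDA-MB-231 EV in 10 of 10, 7 higher and 3 lower, where 79.5% of all genes passed, 39.1% higher and 40.4% lower. It differed from SUM159 EV in 10 of 10, 8 higher and 2 lower, where 78.4% of all genes passed, 37.7% higher and 40.7% lower. These comparisons share their EV libraries. CDK4 was 2.07-fold lower in MDA-MB-231 than in SUM159 (log2 fold change -1.05, SE 0.03, adjusted p = 1.92e-19, edgeR) and CDKN1A 2.18-fold lower (-1.12, SE 0.04, adjusted p = 1.2e-16). CCND1 was 3.87-fold lower in BT549 than in MDA-MB-231 (-1.95, SE 0.04, adjusted p = 3.45e-23), and CCNE2 was 11.3-fold higher in BT549 than in SUM159 (3.50, SE 0.12, adjusted p = 2.17e-18). CCND2, at 0 counts in BT549 EV, was at least 118-fold lower there than in MDA-MB-231 and at least 20.4-fold lower than in SUM159, with 3 counts per library taken as the limit that a count of 0 allows. Joined with its overlapping gene, it was lower in BT549 by less, with log2 fold changes of -4.97 against MDA-MB-231 and -2.85 against SUM159. CDKN1B was 2.34-fold higher in BT549 than in SUM159 (1.22, SE 0.05, adjusted p = 8.03e-16).

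Beyond p21 and p27, 6 further CDK inhibitors were followed. In MDA-MB-231 2 rose, 1 fell and 3 did not pass, in SUM159 3 rose and 3 did not pass, and in BT549 1 rose and 5 fell. Of all genes tested, 21.2% rose and 16.5% fell in MDA-MB-231, 28.6% and 31.4% in SUM159, and 35.6% and 35.0% in BT549. Of the 3 that did not pass in MDA-MB-231, CDKN2A and CDKN2B had 0 counts. The median log2 fold change was 0.23 over the other 4 there, and 1.11 and -0.38 over all 6 in SUM159 and BT549. The SUM159 median includes CDKN2A and CDKN2B, which held at most 18 and 10 counts in a library there and did not pass. The medians of the lines thus rest on unlike sets of genes. CDKN1C, the p57 member of the p21 and p27 family, rose in each comparison from a low level: from 94 and 100 to 299 and 316 counts in MDA-MB-231 (1.70, SE 0.17, adjusted p = 5.47e-08, edgeR), from 34 and 22 to 120 and 160 counts in SUM159 (2.20, SE 0.22, adjusted p = 1.45e-08), and from 0 and 0 to 32 and 35 counts in BT549 OE, at least 11.4-fold higher (adjusted p = 1.19e-08). CDKN2C, the INK4 inhibitor p18, rose 3.44-fold in SUM159 KD, from 109 and 110 to 372 and 381 CPM (1.78, SE 0.03, adjusted p = 5.34e-22), and by 0.43 in MDA-MB-231 KD (SE 0.04, adjusted p = 4.57e-09). In BT549 it fell from 831 and 823 to 403 and 396 CPM (-1.05, SE 0.03, adjusted p = 2.68e-19). The INK4 inhibitor CDKN2D (p19) rose in SUM159 (1.29, SE 0.08, adjusted p = 3.37e-12), fell in BT549 (-0.62, SE 0.10, adjusted p = 1.05e-05) and had a value of 0.03 in MDA-MB-231 (adjusted p = 0.858).

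CDKN2A, which encodes p16 and ARF, was listed at 0 counts in all 4 MDA-MB-231 libraries and at 7 to 18 counts in those of SUM159. In BT549 it stood at 1355 and 1344 CPM in EV and 1136 and 1081 CPM in OE (-0.28, SE 0.03, adjusted p = 2.7e-08, edgeR). Its neighbour CDKN2B (p15) was at 0 counts in MDA-MB-231 and at no more than 10 in SUM159, and it fell in BT549 OE (-0.27, SE 0.05, adjusted p = 3.47e-05). CDKN3, a phosphatase that acts on CDKs, fell in BT549 (-0.48, SE 0.06, adjusted p = 5.23e-07) and in MDA-MB-231 (-0.15, SE 0.05, adjusted p = 0.0276), the latter lost with the removal of any 1 of its 4 libraries (adjusted p from 0.053 to 0.196).

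**Figure D5:**
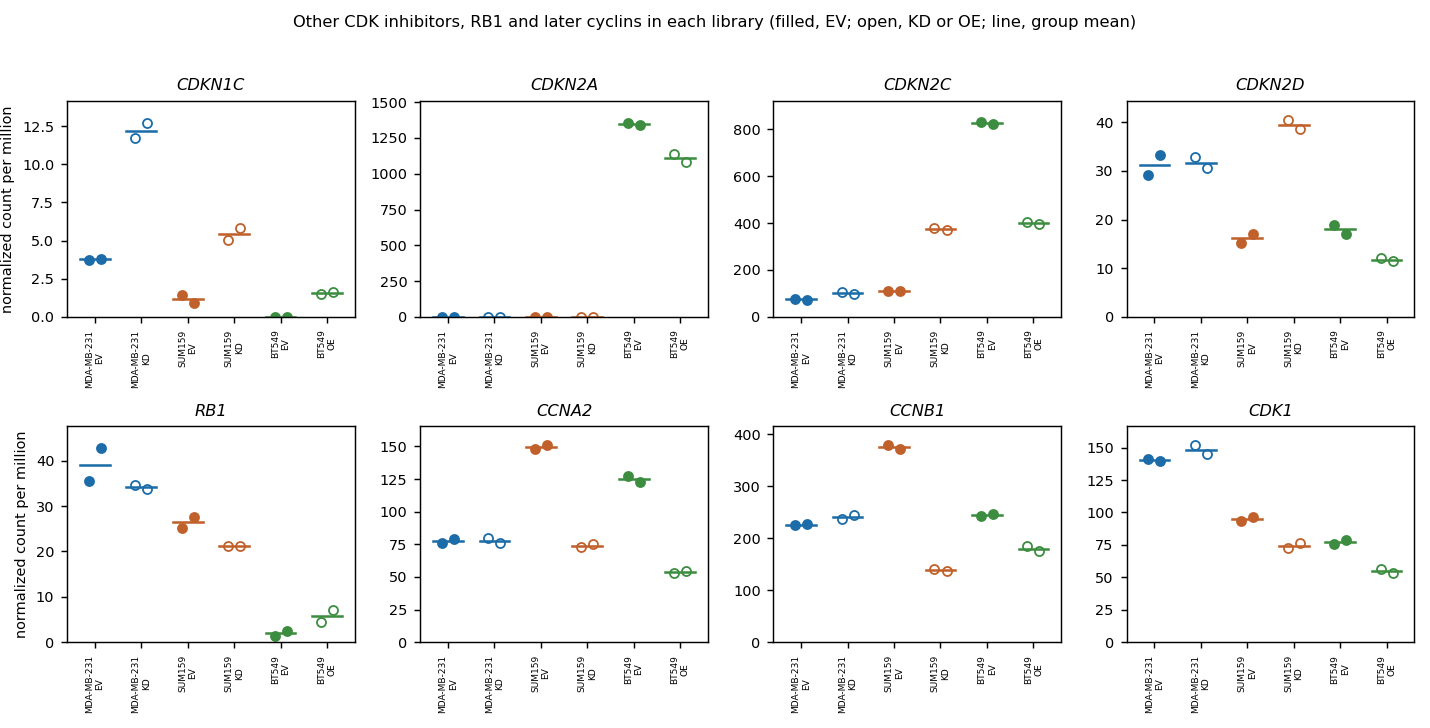
Normalized CPM (y axis, starting at 0) of further CDK inhibitors, RB1 and later cyclins in the 12 libraries, by group on the x axis, with points for libraries and lines for the mean of 2. CDKN2A is near 0 outside BT549, CDKN2C in SUM159 KD lies well above EV, and CCNA2 and CCNB1 lie lower in SUM159 KD and BT549 OE than in their EV groups.

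RB1, the main substrate of these kinases, was at 30 and 55 counts in BT549 EV and at 96 and 150 counts in OE, a rise of 1.56 (SE 0.25, adjusted p = 6.24e-06, edgeR) at a level below that of either other line. BT549 is known to lack functional RB1. In SUM159 RB1 fell from 25.1 and 27.7 to 21.2 and 21.2 CPM (-0.32, SE 0.12, adjusted p = 0.0206), a call that was lost without SUM159 EV replicate 2 or without either KD replicate (adjusted p from 0.0678 to 0.157) and in DESeq2 (adjusted p = 0.38). In MDA-MB-231 it was at 35.5 and 42.8 CPM in EV and 34.6 and 33.7 CPM in KD (-0.20, SE 0.10, adjusted p = 0.145). Its relative RBL2 (p130) rose in BT549 OE (0.88, SE 0.05, adjusted p = 1.68e-13), and RBL1 (p107) fell in MDA-MB-231 KD (-0.53, SE 0.11, adjusted p = 0.000467). Of the 13 pocket proteins and E2F factors, 1 rose and 4 fell in MDA-MB-231, where 21.2% of all genes rose and 16.5% fell. In SUM159 3 rose and 6 fell, beside 28.6% and 31.4% of all genes. In BT549 6 rose and 5 fell, beside 35.6% and 35.0% of all genes. The medians of the 13 were -0.07, -0.11 and 0.09, in that order. E2F5, which pairs with p130, fell in SUM159 (-1.28, SE 0.10, adjusted p = 1.1e-10) and BT549 OE (-2.59, SE 0.11, adjusted p = 3.06e-16). E2F1 rose in SUM159 (0.61, SE 0.06, adjusted p = 1.77e-08) and fell in MDA-MB-231 (-0.20, SE 0.06, adjusted p = 0.0101; not past without EV replicate 2 or KD replicate 1, adjusted p = 0.243 and 0.167), and E2F4 rose in BT549 OE (1.22, SE 0.06, adjusted p = 4.43e-15).

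The 14 genes that activate, assemble or turn over these complexes moved in both directions. In MDA-MB-231 5 were higher and 3 lower, beside 21.2% and 16.5% of all genes. In SUM159 4 were higher and 7 lower, beside 28.6% and 31.4%, and in BT549 5 and 7, beside 35.6% and 35.0%. The medians of the 14 were 0.02, -0.18 and -0.08, in that order. SKP2, the F-box protein that targets p27 for degradation, rose in all 3 comparisons, by 0.46 in MDA-MB-231 (SE 0.05, adjusted p = 1.35e-07, edgeR), 0.30 in SUM159 (SE 0.04, adjusted p = 2.01e-06) and 0.54 in BT549 (SE 0.05, adjusted p = 2.61e-09). Tested alone, its leading transcript did not pass in MDA-MB-231 (0.39, adjusted p = 0.0936) or BT549 (0.07, adjusted p = 0.748). The CDK-activating kinase CDK7 and its partner CCNH fell in SUM159 (-0.53, SE 0.05, adjusted p = 6.98e-10, and -0.87, SE 0.12, adjusted p = 9.4e-07), whereas CDK7 rose in MDA-MB-231 (0.19, SE 0.04, adjusted p = 0.000698), and their assembly factor MNAT1 fell in BT549 OE (-1.27, SE 0.07, adjusted p = 5.16e-14). CKS1B, the cofactor of SKP2, fell in MDA-MB-231 (-0.34, SE 0.04, adjusted p = 1.73e-07) and rose in SUM159 (0.12, SE 0.04, adjusted p = 0.0109).

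Most of the cyclins that act after G1, with CDK1, fell in SUM159 KD and in BT549 OE. Of these 7 genes, none rose and 5 fell in SUM159 (median -0.81), where 28.6% of all genes rose and 31.4% fell. In BT549 1 rose and 6 fell (median -0.49), beside 35.6% and 35.0% of all genes. In MDA-MB-231 3 rose and none fell (median 0.09), beside 21.2% and 16.5%. The 6 in BT549 include CCNB3, at 5 and 4 counts in EV and 0 in both OE libraries. CCNA1 held no more than 5 counts in any SUM159 library and entered the median there. CCNB1, the cyclin of mitotic entry, fell from 379 and 371 to 141 and 136 CPM in SUM159 (-1.44, SE 0.03, adjusted p = 4.5e-20, edgeR) and from 243 and 246 to 185 and 175 CPM in BT549 (-0.44, SE 0.03, adjusted p = 7.3e-11). CCNA2, the S phase partner of CDK2, fell from 148 and 151 to 72.7 and 75.0 CPM in SUM159 (-1.02, SE 0.04, adjusted p = 7.82e-16) and from 127 and 123 to 52.9 and 54.9 CPM in BT549 (-1.22, SE 0.05, adjusted p = 5.34e-17). So CCNA2 and CCNB1 were lower in SUM159 KD and in BT549 OE, while CCND3, CDK2 and CDK6 were higher in the former and lower in the latter. In MDA-MB-231 the leading transcripts of the 3 that rose, CCNA1, CCNF and CCNB1, did not pass alone (adjusted p = 0.647, 0.0511 and 0.26), and CCNB1 did not pass with library size alone (0.01, adjusted p = 0.923) or without EV replicate 1, EV replicate 2 or KD replicate 2 (adjusted p from 0.0627 to 0.217).

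Each member was last set beside the protein-coding genes whose pattern over the 12 libraries was most like its own, by Pearson r of log2 CPM among 11876 candidates. These correlations run over 6 groups of 3 lines, mainly follow line and group, and carry no test. CCND1 was closest to TXNRD1, the gene of thioredoxin reductase (r = 0.995), and to RALGAPA2 (r = 0.994). CDKN1A was closest to ERBB2 (r = 0.983) and SLC6A15 (r = 0.979), and CDK6 to ERCC6 (r = 0.968) and LEPROT (r = 0.964). For CCND3 they were PCMT1 and ELOVL1 (r = 0.994 for both), for CCNE1 PCDHGC3 and HNRNPAB (r = 0.996 and 0.995), and for CCNE2 FZD8 and ISYNA1 (r = 0.996 and 0.995). CCND2 was closest to FOXA2 and MARCHF4 (r = 0.997 and 0.993), CDK2 to LAMA3 and NQO2 (r = 0.974 and 0.969), CDK4 to TBX18 and CNTLN (r = 0.997 and 0.996), and CDKN1B to XPO7 and PDE4B (r = 0.993 for both).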

How the data were processed

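Polysome RNA of 12 libraries, grouped by the sample labels, was analysed. According to the methods, the authors used Trimmomatic for trimming, HISAT2 for alignment (GRCh38) and SAMtools to drop PCR duplicates. Library preparation is given as rRNA depletion in the methods and as poly(A) enrichment in the labels. The counting tool and strand setting are not given in the sources used here. The values, deposited by transcript, are expected counts without normalization in all 12 columns. In the 8 columns of MDA-MB-231 and SUM159, 5.08% of the transcripts carry a missing mark, which was taken as 0. Each listed transcript has a value above 0 in at least 1 BT549 library.

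Transcripts were matched to GENCODE 44 without version numbers (79.6% matched, holding 99.25% to 99.41% of the counts of each library), summed per symbol and rounded. Genes passing filterByExpr received TMM factors and an edgeR 4.0.16 quasi-likelihood test in R 4.3.3 (1 model of 6 group means, 6 residual degrees of freedom, Benjamini-Hochberg adjustment). The common dispersion was 0.000835. CPM were taken with TMM, and TPM from each transcript's length. Limits for a count of 0 (3 counts) cover counting error only. The fit was tested on simulated data. Figures were drawn with matplotlib 3.10.9.

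Members and lists were chosen with earlier results of these data known. The values of 1 list, of 19 genes, are not reported here, though counts over all pathway lists include it. Named were all members, all further CDK inhibitors, RB1, RBL1 and RBL2, genes among the 3 of each other list with the smallest p in each comparison, and the 2 genes most like each member. A few genes are named a second time in a comparison outside that rule, chosen after their values were seen. The alternatives changed the scaling (RLE factors or library size), the tool (DESeq2 1.42.0), the filter (none, or 50 counts on average) or the model (with the replicate number as block, or 1 line at a time). Others were versioned matching, marked transcripts left out, the leading transcript singly, its length for TPM, and leaving out each library. Joining CCND2 with its overlapping gene was added after the data were seen. Same-numbered replicates did not deviate together (correlations of 0.02, -0.025 and 0.004 over 12590 genes in MDA-MB-231, SUM159 and BT549), so the numbers were not taken as pairs.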

Additional observations from a re-analysis of the deposited data

Results flagged for a closer look

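The response to TRMT112 KD differed between MDA-MB-231 and SUM159 for 9 members by an edgeR test of the difference itself, on the log2 scale as MDA-MB-231 minus SUM159. Of all genes tested, 50.9% passed the same test, 27.7% above and 23.2% below 0. The difference was above 0 for CCND1 (0.31), CCND2 (3.14) and CDKN1B (0.54). It was below 0 for CCND3 (-0.31), CCNE2 (-0.57), CDK2 (-0.21), CDK4 (-0.17), CDK6 (-0.93) and CDKN1A (-0.21). CDKN1B alone moved past the threshold in opposite directions in the lines, and CCND1, CCND3 and CDKN1A moved past it the same way in both. With the leading transcript tested singly, the differences of CCNE2, CDK2 and CDKN1A did not pass. That of CCNE2 also shrank to -0.26 without SUM159 KD replicate 2 and to -0.41 without SUM159 EV replicate 2. The CCND2 value was 2.04 when its counts were joined with those of the gene that overlaps it. With 2 libraries per group, no group could be checked for a library apart from the others.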

How the results depend on the processing

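Of 1484 comparisons of a member's value with an alternative, 1424 kept the direction and the side of the threshold. These include fits that left out a library of another line. Of the 69 member results, 23 changed under at least 1 alternative. Counts of genes that passed in the alternative fits below are given without the share over all genes or transcripts. They are therefore no result about the members. Without 1 library in turn, the members that passed numbered 3 to 4 in MDA-MB-231, 7 to 10 in SUM159 and 7 to 8 in BT549 (the lone library was assumed to vary like the other groups). With the leading transcript tested singly, which gives fewer counts, 10 of the 59 genes of the pathway lists passed in MDA-MB-231 (32 as reported) and 27 in SUM159 (41), and 5 members passed in BT549 (8), while CCND3 between the EV groups of MDA-MB-231 and SUM159 became 0.11. The calls of members lost there were those of CDKN1B in MDA-MB-231, of CCNE2, CDK4 and CDKN1A in SUM159 of CCNE2, CDK4 and CDK6 in BT549, of CCNE2, CDK2 and CDKN1A between the KD responses of the lines (adjusted p = 0.141, 0.228 and 0.106) and of CCNE1 between BT549 EV and SUM159 EV (adjusted p = 0.0673); the gene calls lost included RB1, CDKN2B and CDKN2D in BT549 and RBL1 in MDA-MB-231.

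With the replicate number as a block, 4, 8 and 8 members passed, and CCNE2 in SUM159 no longer did (0.38, adjusted p = 0.0531, edgeR). The numbers did not mark pairs.

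The remaining values that changed sign were close to 0. The CCNE1 difference between the KD lines was -0.01 with RLE factors and DESeq2, -0.03 with library size only, -0.02 with a mean of at least 50 counts, -0.16 for the leading transcript and -0.09 to 0.14 without 1 library. CCND1 between the EV groups of MDA-MB-231 and SUM159 was 0.03 with RLE factors and DESeq2, 0.07 with library size only (adjusted p = 0.0295) and 0.01 with a mean of at least 50 counts. In MDA-MB-231, library size only gave -0.02 for CDK2, -0.01 for CDK6, -0.07 for CDKN2D and RBL2, and the leading transcript gave -0.10 for CCNE1 and -0.03 for CDKN2D. CDK4 between BT549 EV and SUM159 EV was -0.0012 with library size only. CDKN1B in BT549 was -0.00034 with the line fitted alone. CCND2 in MDA-MB-231 was 0.11 when joined with its overlapping gene. Without 1 library, CDKN2D ranged from -0.07 to 0.13 and RBL2 from -0.01 to 0.05 in MDA-MB-231, CDKN3 from -0.01 to 0.13 in SUM159, and CDKN1B from -0.03 to 0.05 and RBL1 from -0.0049 to 0.18 in BT549. The cause was not tested. The CCND2 level in SUM159 KD rests on 4 and 11 counts.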
